A study of Mus musculus with 9 samples.

Results

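J774A.1 is a mouse macrophage cell line, and the comparison described here set J774A.1 cells that received the compound Q11 together with interleukin-4 (IL-4) and interleukin-13 (IL-13) against untreated cells of the same line. It used 6 of the 9 sequenced libraries, the 3 labelled Q11 and the 3 labelled control. Control cells were cultured normally, and the Q11 group received Q11, IL-4 and IL-13 at the same time, so the compound and the cytokines differed from control together and their parts in any difference between these groups cannot be told apart. The other 3 libraries, labelled M2, received IL-4 and IL-13 alone (10 ng/mL) and serve below to place the Q11 values. The series title names Q11 as an inhibitor of CYP2E1, a cytochrome P450 enzyme of drug and ethanol metabolism. The dose of Q11, the cytokine dose in the Q11 group and the duration are not given in the sources used here, and the study had no group with Q11 alone. J774A.1 is a single immortal line, and no label says whether each library had its own culture. The p-values therefore reflect how much these libraries vary, and that variation may be technical.

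IL-4 and IL-13 act on macrophages through receptors that share the IL-4 receptor alpha chain. Janus kinases bound to these receptors phosphorylate the transcription factor STAT6, which enters the nucleus and switches on the genes of alternative (M2) activation: lectin receptors such as the mannose receptor, arginine-handling enzymes, particular chemokines and the feedback inhibitor SOCS1. The same cytokines are known to dampen the inflammatory (M1) genes that Toll-like receptors, NF-kappaB and interferons drive.

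Levels are given in TPM, each library's transcript abundances scaled for gene length to a fixed total. A gene was tested when at least 3 of the 6 control and Q11 columns reached 1 TPM, which 13658 of the 26157 genes in the deposited table did. Differences are on the scale log2(TPM + 1), which understates the change of low genes, with a 95% interval and a two-sided limma p, adjusted for all 13658 genes at once (Benjamini-Hochberg). A gene is called higher or lower where that adjusted p is under 0.05.

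The Q11 libraries are not 3 independent measurements. Among 19471 genes above 0 in Q11 replicate 3, the TPM of Q11 replicate 2 was 0.52572 times that of replicate 3 in 2086 genes and below that ratio in 11. Against each of the other 7 libraries, between 2228 and 3271 genes lay below it. Such a floor is the pattern left when the reads of replicate 3 are contained in replicate 2. Reads recovered from TPM and gene length put 32193523 reads in replicate 2 and between 15815847 and 17095787 in each of the other 8 libraries. The log2 values of replicates 2 and 3 were therefore averaged and counted as 1 library, which leaves the Q11 group with 2, and Q11 means ± SD below have n = 2. Removing the share of replicate 3 from replicate 2 left 15336285 reads. The remainder differed from the other 8 libraries by an SD of 0.23 to 0.30 in log2 over 8624 genes, against 0.18 between Q11 replicates 1 and 3. M2 replicate 3 lay similarly far from the other deposited columns, at 0.23 to 0.31. All 10 macrophage markers examined were above the filter. Of 3 neutrophil markers in the table, S100a8 lay at 32.2 TPM (mean) in control and 17.4 in Q11 and did not pass (limma adjusted p = 0.052). No T cell, B cell, mast cell, fibroblast, epithelial or hepatocyte marker in the table passed 1.36 TPM in any library. Dendritic cell markers reached 3.91 TPM at most (Zbtb46) and endothelial markers 2.35 TPM (Cdh5), and neither gene passed the test. The share of TPM from mitochondrial genes was 6.55 to 6.83% in control and 6.69 to 7.06% in Q11.

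**Figure D1:**
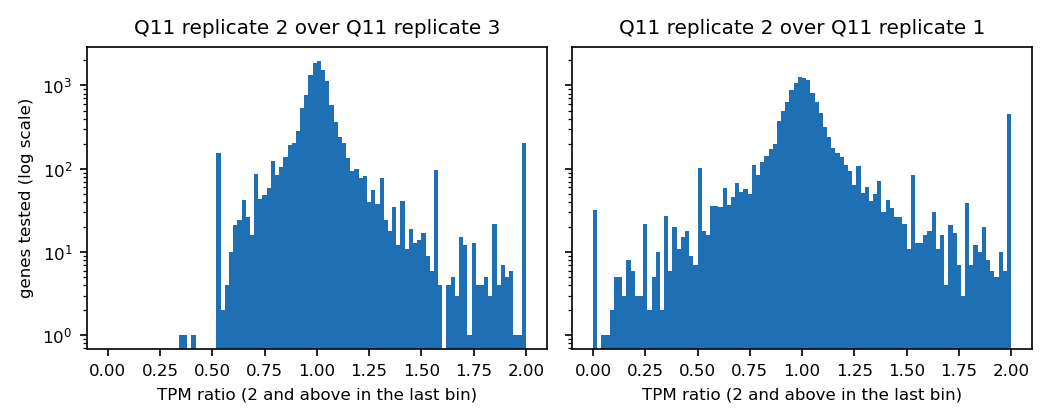
Histograms of the TPM ratio of Q11 replicate 2 to Q11 replicate 3 (left) and to Q11 replicate 1 (right) over genes tested, with the number of genes on a log axis and ratios of 2 and above in the last bin. On the left the ratios stop at 0.52572, with 11 genes of the whole table below it, and on the right they run down to 0.

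Against control, 368 genes were higher (2.69% of the 13658 tested) and 444 were lower (3.25%), or 5.95% in all. List counts below are to be read beside these shares. Most changes were modest. The median size of a called change was 0.32, 36 genes rose by at least 1 and 15 fell by at least 1. In 4497 genes (32.9%) the control and Q11 columns did not overlap, and 810 of the 812 called genes were among them. The median difference over all tested genes was 0.00. Without Q11 replicate 1, which leaves the shared pair alone in its group, 95 genes were higher and 132 lower. The counts were 217 and 265 without control replicate 1, 234 and 279 without control replicate 2, and 232 and 281 without control replicate 3. With the shared reads separated they were 546 and 585. Limma-voom on recovered reads called 743 higher and 832 lower of 13473 genes, so its list counts below stand beside larger shares. The share of all genes at an unadjusted p under 0.05 was not counted for this comparison. Unadjusted list counts below therefore have no such share beside them. Unless stated, a called gene with printed values kept its call in all the alternative settings that tested it, up to 21 of them, and its adjusted p is printed only for the leading genes.

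**Figure D2:**
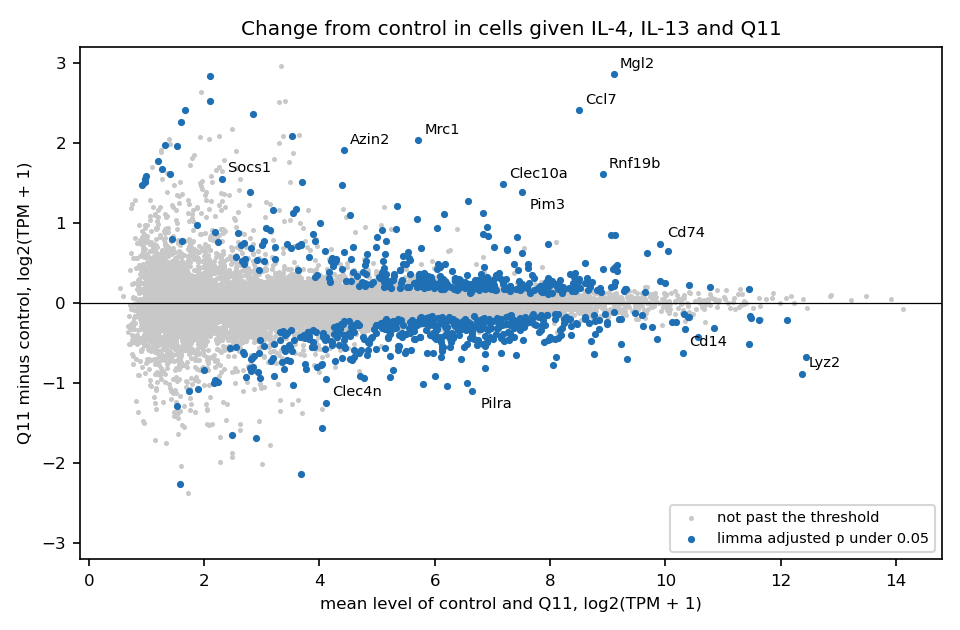
Each point is 1 of the 13658 genes tested, placed by its mean level over the control and Q11 groups (x axis, log2(TPM + 1)) and by Q11 minus control (y axis, same scale); 1 gene lies outside the y range. Blue points passed an adjusted p of 0.05 by limma, and labels mark some of the genes named in the text, with Mgl2, Ccl7 and Mrc1 the highest of those labelled.

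Lectin receptors of alternative activation were among the largest rises of the named genes. Mgl2, a galactose-type C-type lectin known as CD301b (chr11:70130329-70137550, GRCm38), was at 134, 132 and 129.9 TPM in control replicates 1 to 3 and at 986, 929 and 955 TPM in Q11. All Q11 columns lay above all control columns, as the rule for the largest rises required. The means differed 7.32-fold, and the log2 difference was 2.86 [2.71, 3.01] (limma adjusted p = 4.8e-07). Its M2 values, 1009, 911 and 1091 TPM, enclosed those of Q11. Mrc1, the mannose receptor CD206 that takes up glycoproteins (chr2:14229392-14332057), stood at 19.4, 19.1 and 20.4 TPM in control and at 81.1, 84.5 and 87.3 TPM in Q11. The groups did not overlap, as the rule for the largest rises required, and Mrc1 rose by 2.03 [1.93, 2.14] (limma adjusted p = 4.8e-07). Clec10a, the CD301a paralog beside Mgl2 on chromosome 11, rose from 76.6, 72.4 and 76.1 TPM to 215, 206 and 212 TPM, a difference of 1.49 [1.37, 1.60]. Of the 50-base stretches in Mgl2 transcripts 13.1% also occur in another gene, chiefly Clec10a, so reads of the pair can be split in part by the counting.

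Among 20 tested members of a list of M2 markers, 9 were higher and 2 lower, with a median difference of 0.49 against 0.00 over all genes. Besides the lectins, the higher members included Slc7a2, a transporter of cationic amino acids, Clec7a, the beta-glucan receptor dectin-1, Ptgs1, cyclooxygenase-1, Tfrc, the transferrin receptor, and Myc. Ptgs1 went from 143, 139 and 145 TPM to 223, 222 and 216 TPM, and Tfrc from 659, 674 and 611 TPM to 995, 993 and 999.5 TPM. Both rose clear of the control spread, by 0.63 [0.51, 0.75] and 0.62 [0.50, 0.74]. Il1rn, the interleukin-1 receptor antagonist, and Msr1, a scavenger receptor, were the lower members, with differences of -0.44 and -0.20. Their calls were lost in 6 and 7 settings, among them those without Q11 replicate 1 and without any 1 control library, and for Msr1 without M2 replicate 1. Both were named after their values were seen, as were the genes of other lists that the rule for named genes does not cover.

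Several textbook M2 genes were scarcely expressed in this line. Arg1, arginase-1, lay at 0.37, 0.444 and 0.0919 TPM in control and at 1.02, 3.07 and 2.43 TPM in Q11. Its Q11 columns were all above control yet spread widely, and the difference of 1.09 [0.06, 2.11] did not pass (limma adjusted p = 0.226). It passed in 1 alternative, limma-voom on recovered reads. Retnla had no recovered read in any control or Q11 library. Chil3 had none in control and 6, 9 and 8 in Q11 replicates 1 to 3, too few for a test. Of its 50-base stretches 26.9% are shared with other genes, chiefly Chil4. The reads of replicate 3 may be among those of replicate 2, here and for Pparg. Pparg, a nuclear receptor linked to M2 lipid metabolism, was under the filter with 3, 18 and 6 reads in control and 17, 28 and 12 in Q11.

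**Figure D3:**
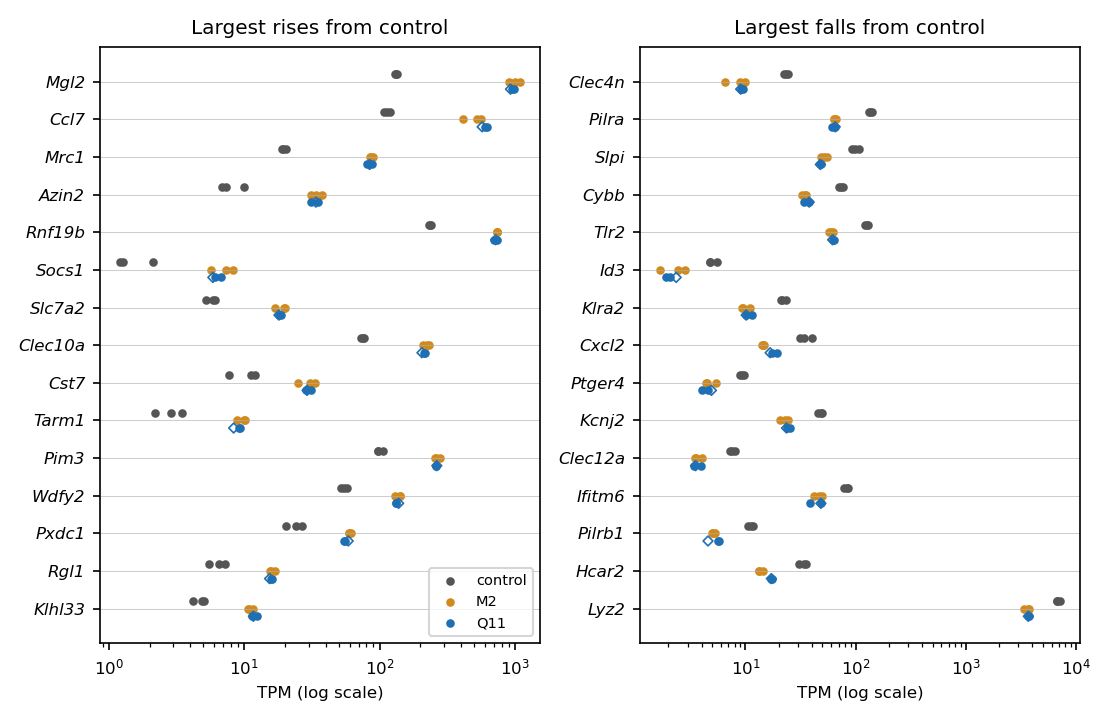
TPM on a log axis in every library for the 15 largest rises (left) and the 15 largest falls (right), with control, M2 and Q11 points on separate rows for each gene; open diamonds mark Q11 replicate 2, which shares reads with replicate 3. For each gene drawn the control and Q11 points do not overlap, as the selection required, and the M2 points lie near those of Q11.

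The wider family of C-type lectins split by direction. Of 15 tested members, 6 were higher and 6 lower. Clec7a rose from 7.97, 9.52 and 8.62 TPM to 14.4, 16.0 and 15.0 TPM (0.72). Clec4n, dectin-2, a receptor for fungal mannans (chr6:123229843-123247021), was the largest fall of a named gene. It stood at 23.5, 24.2 and 22.5 TPM in control and at 9.57, 9.04 and 9.02 TPM in Q11. The rule for the largest falls required that these columns not overlap. Clec4n fell by 1.24 [interval -1.58 to -0.91] on the log2 scale (limma adjusted p = 0.00246). The related receptors Clec4d and Clec4e, which pair with the Fc receptor gamma chain, lay at 330.6, 350.7 and 329.9 TPM and at 213, 213 and 197 TPM in control. In Q11 they lay at 212, 204 and 213 TPM and at 130.4, 134 and 133 TPM. Clec5a, a DAP12-coupled receptor, and Clec12a, an inhibitory receptor, were lower too, by -0.81 and -0.92.

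Components of the IL-4 receptor pathway moved unevenly. Socs1, which binds Janus kinases and blocks the pathway, rose from 1.21, 2.11 and 1.27 TPM to 6.73, 5.86 and 6.06 TPM. The lowest Q11 column was more than the highest control column, as the rule for the largest rises required. The difference was 1.56 [1.09, 2.02] (limma adjusted p = 0.00415). It was lost without Q11 replicate 1. Jak2, one of the receptor kinases, rose from 21.5, 21.9 and 22.8 TPM to 39.0, 40.4 and 40.5 TPM, by 0.82 [0.71, 0.93]. Il13ra1, the chain that joins the IL-4 receptor alpha chain to bind IL-13, went the other way, from 28.8, 27.3 and 30.7 TPM to 19.1, 17.1 and 16.0 TPM. Its difference was -0.67 [-0.89, -0.46]. Stat6 (control 159, 152 and 155 TPM, Q11 145, 149 and 148 TPM) and Il4ra (control 16.8, 15.2 and 15.9 TPM, Q11 17.0, 17.6 and 15.8 TPM) did not pass, with differences of -0.08 [-0.16, 0.01] and 0.07 [-0.09, 0.23]. In the list of 25 receptor and signalling genes, 2 were higher and 2 lower, with a median of -0.04. The fourth called member, Ptpn6, the phosphatase SHP-1, differed by -0.20 and was lost in 3 settings, those without control replicate 1, without Q11 replicate 1 and without the mean-variance trend.

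Of 18 transcription factors tied to alternative activation, 4 were higher and 4 lower. Tfec, a macrophage factor of the MiT family, stood at 1.44, 1.91 and 1.10 TPM in control and 4.12, 3.76 and 3.43 TPM in Q11. Myc rose from 14.1, 13.6 and 17.0 TPM to 21.5, 22.8 and 23.2 TPM, with a difference of 0.56 [0.35, 0.77]. Id3, an inhibitor of helix-loop-helix factors, and Ppard, a fatty acid sensor, were lower at 2.07, 2.35 and 1.90 TPM and at 7.87, 7.34 and 6.82 TPM, from 5.53, 4.75 and 4.8 TPM and 11.6, 12.4 and 10.6 TPM. All 4 calls were lost without Q11 replicate 1, which left 1 member of the list higher and 0 lower. Leaving out control replicate 1 left 1 lower member, and leaving out control replicate 2 or 3 left 2. The calls of Tfec and Id3 were lost in 5 and 7 settings, among them the ones without control replicate 1 or 3 for both and without control replicate 2 for Id3.

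Genes of arginine uptake and polyamine control included some of the largest rises. Azin2, the antizyme inhibitor that protects ornithine decarboxylase from degradation, went from 7.38, 6.88 and 9.97 TPM to 31.2, 33.9 and 34.9 TPM. Slc7a2 went from 5.26, 5.84 and 6.10 TPM to 18.1, 18 and 18.6 TPM. The differences were 1.91 [1.58, 2.24] for Azin2 and 1.51 [1.3, 1.72] for Slc7a2. The rule for the largest rises required the full separation of both from control. Srm, spermidine synthase, rose by 0.31 [0.23, 0.39]. Ass1, which rebuilds arginine from citrulline, fell from 122, 127 and 122 TPM to 89.2, 87.3 and 92.8 TPM, and 38.6% of its 50-base stretches are shared with another gene, the pseudogene-like Gm5424. In all, 3 of 22 members of this list were higher and 2 lower, with a median of 0.03, and 1 was lower without control replicate 2, control replicate 3 or Q11 replicate 1. Ornithine decarboxylase itself, Odc1, differed by -0.04.

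The remaining large rises fell outside these groups. Rnf19b, an E3 ubiquitin ligase, was the most precisely measured, at 236, 233 and 241 TPM in control against 733, 722 and 705 TPM in Q11, a rise of 1.61 [1.55, 1.67] (limma adjusted p = 1.1e-07). Pim3, a serine/threonine kinase, rose from 97.3, 96.9 and 106 TPM to 262, 265 and 259.6 TPM. Cst7, cystatin F, an inhibitor of lysosomal proteases, rose from 11.9, 11.2 and 7.68 TPM to 30.9, 29.1 and 28.6 TPM. Each of these was fully separated from control, as the rule for the largest rises required. Tarm1, an activating receptor of myeloid cells, Wdfy2, an endosomal FYVE-domain protein, Pxdc1, Rgl1, a guanine nucleotide exchange factor for Ral, and Klhl33 completed the 15 largest rises, with differences between 1.16 and 1.39. Some called genes outside the rule for naming had larger differences, mostly short or clone-named genes with few reads. Gm8113, a predicted gene of no stated function, rose from 3.64, 3.34 and 3.16 TPM to 20, 16.5 and 14.5 TPM, by 2.09. Abcd2, a peroxisomal transporter of long-chain fatty acids, lay at 0.208, 0.266 and 0.448 TPM in control and 2.77, 3.43 and 3.03 TPM in Q11. Both were named after their values were seen.

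Chemokine genes moved in both directions, with Ccl7, Ccl12 and Ccl2 higher. Ccl7, a ligand of CCR2 (chr11:82045712-82047525), went from 119, 109 and 113 TPM to 626, 573 and 602 TPM, 5.35-fold in the means. Its difference was 2.41 [2.14, 2.68] (limma adjusted p = 4.39e-05). Ccl12, another CCR2 ligand in the same cluster, rose from 81.0, 75.8 and 84.3 TPM to 150.3, 135 and 150.2 TPM, and Ccl2 was higher by 0.64. Cxcl2, a neutrophil attractant, fell from 33.8, 31.0 and 40.3 TPM to 17.4, 16.7 and 19.4 TPM, with a difference of -0.94 [-1.16, -0.71]. Cxcr4, the receptor for CXCL12, went from 79.7, 92.9 and 79.5 TPM to 50.7, 50.7 and 55.9 TPM. Ccl9 was also called lower with all libraries, at -0.44 [-0.63, -0.26], and its call in the other settings is not given here. Ccl3 and Ccl6 differed by -0.22 and -0.47 and did not pass. In the list of 15 chemokines and receptors, 3 were higher and 5 lower, with a median of -0.36, and 3 were lower without Q11 replicate 1.

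Toll-like receptors and their adaptors shifted at particular members. Tlr2, the receptor for bacterial lipopeptides (chr3:83836272-83841767), stood at 126, 129 and 122 TPM in control and 61.9, 61.8 and 63.4 TPM in Q11. The columns of each group were tightly grouped, and Tlr2 fell by 1.0 [interval -1.10 to -0.90] on the log2 scale (limma adjusted p = 1.97e-05). Cd14, the co-receptor for lipopolysaccharide, fell from 1497, 1539 and 1545 TPM to 1000.1, 989.7 and 985 TPM, and Irak2, a kinase downstream of these receptors, fell by 0.58. Tlr8, an endosomal receptor for RNA, rose instead, from 43.7, 43.2 and 45.3 TPM to 81.0, 90.1 and 88.2 TPM, by 0.93 [0.81, 1.05]. Of 24 tested members 1 was higher and 7 were lower, or 4 lower without Q11 replicate 1 and 2 higher without M2 replicate 3. Tlr4 and the adaptor Myd88 did not pass, with differences of 0.22 and 0.06.

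Part of the inflammatory genes were lower. Of 30 tested M1 genes, 11 were lower, 18 did not pass and 1, Nfkb1, was higher (a call lost without Q11 replicate 1), with a median of -0.26. The count of lower genes was 5 without Q11 replicate 1, and limma-voom gave 16. Tnf, tumour necrosis factor, stood at 140.3, 143 and 140.1 TPM in control and 98.8, 82.5 and 81.5 TPM in Q11, a difference of -0.64 [-0.85, -0.43]. Nfkbiz, a nuclear cofactor of NF-kappaB, fell from 11.9, 12.9 and 12.4 TPM to 6.81, 6.4 and 6.18 TPM, and Nlrp3, the inflammasome sensor, from 106, 103 and 109.6 TPM to 71.3, 74.6 and 72.9 TPM. Ptgs2, cyclooxygenase-2, was lower by 0.60 while its relative Ptgs1 was higher, but the call of Ptgs2 was lost without Q11 replicate 1. Acod1, the enzyme that makes itaconate, and Marco, a scavenger receptor, differed by -0.80 each, and their calls were lost in 8 and 5 settings. Both were lost without Q11 replicate 1 and without control replicate 1 or 2, and Acod1 also without control replicate 3 or M2 replicate 3. Il1b (1.41, 1.14 and 1.50 TPM in control, 0.864, 0.993 and 1.47 TPM in Q11) overlapped between groups and did not pass. Il6 and Nos2 were under the filter, with at most 5 and 58 recovered reads in a control library and 1 and 18 in a Q11 library.

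Costimulatory receptors fell while the class II chaperone rose. Cd80, Cd86 and Cd40, which activate T cells and respond to them, went from 4.18, 4.11 and 4.04 TPM, 37.5, 35.0 and 37.8 TPM, and 8.35, 8.36 and 8.48 TPM in control to 2.00, 1.90 and 1.51 TPM, 22.0, 26.4 and 27.2 TPM, and 5.38, 4.91 and 4.70 TPM in Q11. Every Q11 column lay under every control column for all 3 genes. The calls of Cd80 and Cd86 were lost without Q11 replicate 1, and that of Cd80 also without control replicate 1. Cd74, the invariant chain of MHC class II, rose from 709.8, 686 and 769.9 TPM to 1206, 1210.01 and 1206 TPM, by 0.74 [0.58, 0.90]. Of 16 tested members 1 was higher and 6 lower, with a median of -0.30, and 2 were lower without Q11 replicate 1.

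Interferon-response genes were lower in part. Of 45 tested, none was higher and 9 were lower by limma, with a median of -0.22. At an unadjusted p under 0.05, 0 were higher and 22 lower, but the share of all genes at that p was not counted. Limma-voom called 0 higher and 17 lower, beside 743 and 832 of 13473 over all genes. The abundant antiviral protein gene Ifitm3 fell from 3234, 3380 and 3279 TPM to 2342, 2251 and 2326 TPM, by 0.51 on the log2 scale. Ifi27l2a went from 74.4, 67.9 and 65.9 TPM to 40.5, 45.5 and 53.2 TPM, and Oas3, a sensor of double-stranded RNA, from 24.2, 24.2 and 23 TPM to 17.4, 16.7 and 16.8 TPM. The last 2 calls were lost without Q11 replicate 1, and that of Oas3 also without control replicate 1 or 2. The list's count of lower genes ran from 2, without Q11 replicate 1 or control replicate 1, to 18 with the Q11 columns taken as deposited. Leaving out control replicate 2 gave 3, and leaving out control replicate 3 gave 5. Isg15, with a difference of -0.63, did not pass.

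Several effectors that kill microbes were lower. Of 12 tested members of this list, which also holds cystatins, 7 were lower and 1, the protease inhibitor Cst7, was higher. The count of lower members was 3 without Q11 replicate 1 and 4 without control replicate 2 or control replicate 3. Lyz2, lysozyme, which cuts bacterial cell walls (chr10:117277331-117282321), fell from 6698, 7140 and 6740 TPM to 3705, 3694 and 3766 TPM. Its difference was -0.88 [-1.01, -0.76] (limma adjusted p = 0.000109), and 15.4% of its 50-base stretches are shared with Lyz1. Cybb, the catalytic subunit of the NADPH oxidase, fell from 77.3, 70.6 and 73.3 TPM to 34.1, 37.9 and 37.9 TPM, with a difference of -1.02 [-1.16, -0.87]. Mpeg1, the pore-forming protein perforin-2, fell from 806, 803 and 773 TPM to 481, 496 and 498 TPM. Ncf1, a cytosolic subunit of the same oxidase, was lower by a smaller amount, -0.20, a call lost without Q11 replicate 1, control replicate 2 or control replicate 3 and without the mean-variance trend. In bulk RNA, fewer cells with a transcript and less of it per cell cannot be told apart.

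The general macrophage markers did not move as a block. Of 26 identity genes, 9 were lower and 1 higher, with a median of -0.10. Without Q11 replicate 1, 4 were lower, and the higher call was lost without that library or any 1 control library. The lower members were led by Lyz2, Mpeg1 and Cd14. Csf1r, Adgre1, Cd68 and Spi1, which define the lineage, did not pass, and their differences ran from -0.12 to 0.13. The summed TPM of the 10 markers used to check the cell type was 13126 to 13670 in control and 9229 to 9315 in Q11, with Lyz2 and Cd14 contributing most of the gap.

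Other immune receptors and secreted proteins were among the largest falls. Pilra, an inhibitory receptor of myeloid cells, went from 135, 132 and 141 TPM to 61, 65.2 and 64.9 TPM, by -1.10 [-1.2, -1.0], and its activating partner Pilrb1 went from 11.8, 11.1 and 10.5 TPM to 5.79, 4.57 and 5.62 TPM. These genes share 20.8% and 32.2% of their 50-base stretches with other genes. Slpi, a secreted inhibitor of neutrophil elastase, fell from 92.8, 107 and 97.7 TPM to 47.8, 47.8 and 48.3 TPM. Hcar2, the receptor for niacin and beta-hydroxybutyrate, fell from 30.7, 35.2 and 33.8 TPM to 17.3, 17.2 and 16.9 TPM. For each of these the highest Q11 column was under the lowest control column, as the rule for the largest falls required. Ptger4, a prostaglandin E2 receptor, Kcnj2, an inward-rectifier potassium channel, Ifitm6 and Klra2, a Ly49-family receptor, were lower by 0.92 to 0.95.

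Matrix and lysosomal proteases changed in both directions. Spp1, osteopontin, a secreted phosphoprotein, fell from 6741, 7071 and 6719 TPM to 4314, 4229 and 4232 TPM, with a difference of -0.68 [-0.77, -0.58], and 11.6% of its 50-base stretches are shared. Mmp9, gelatinase B, fell from 321, 295 and 386 TPM to 187, 203 and 197 TPM, a call lost without Q11 replicate 1. Mmp13, collagenase-3, rose from 23.9, 20.3 and 25.1 TPM to 38.6, 37.6 and 37.7 TPM. Of 23 tested members of the matrix list 4 were higher and 7 lower. These counts were 2 and 4 without Q11 replicate 1, and 2 were higher without control replicate 1 or 2. Among 41 lysosomal genes 4 were higher and 9 lower, but 1 and 3 without Q11 replicate 1. The higher members numbered 2 without control replicate 1 or 3, and the lower ones 5 without control replicate 1 or 2. The cathepsins Ctsc, Ctsk and Ctss differed by -0.41, -0.33 and -0.31, whereas Ctsl was higher by 0.30. The calls of Ctss and Ctsl were lost without Q11 replicate 1.

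Lipid mediator and complement genes also divided. Alox5, 5-lipoxygenase, which starts leukotriene synthesis, went from 17.6, 20.51 and 20.8 TPM to 11.1, 11.5 and 10.6 TPM, with a difference of -0.77 [-1.04, -0.50] that was lost without Q11 replicate 1. C3, the central complement component, rose from 96.7, 99.3 and 95.8 TPM to 134, 134 and 130.3 TPM, while the C1q chains C1qa, C1qb and C1qc were lower by 0.15 to 0.28. All 3 C1q calls were lost without Q11 replicate 1, and those of C1qb and C1qc also without any 1 control library. Of 17 eicosanoid genes 1 was higher and 4 lower, and of 12 complement genes 2 were higher and 5 lower. Without Q11 replicate 1, 0 eicosanoid genes were lower, and 1 complement gene was higher and 1 lower. Leaving out any 1 control library gave 2 lower eicosanoid genes (as did leaving out M2 replicate 1) and 1 higher and 3 lower complement genes.

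Genes that build ribosomes shifted slightly upward. All 29 tested members had a positive difference, 12 were called higher, and the median was 0.21. Nolc1, Nop2 and Fbl, nucleolar proteins that process ribosomal RNA, differed by 0.31, 0.27 and 0.27. Nolc1 went from 194, 186 and 181 TPM to 235, 230 and 227 TPM. As for all genes, the calls of this list depended on single libraries. Without Q11 replicate 1, 0 of its members were called by limma, 5 were without control replicate 1 or 3, and the call of Fbl was also lost without control replicate 1 or 3. At an unadjusted p under 0.05 in the full set of libraries 27 were higher, but the share of all genes at that p was not counted. Limma-voom called 21 higher, beside 743 of 13473 over all genes. With the shared reads separated 18 were higher, and 7 when replicate 1 was then left out. Of 54 ribosomal protein genes of the cytoplasm 0 were called by limma, with a median of 0.03. At an unadjusted p under 0.05, 3 of these were higher and 3 lower, and limma-voom called 3 lower. Chaperones had 7 of 21 higher and 0 lower by limma, with a median of 0.12, while limma-voom called 11 higher and 0 lower. They were led by Hsph1 (0.31), Hspd1 (0.28, with 42.1% of its 50-base stretches shared) and Fkbp4 (0.26), and the count was 4 without any 1 control library or Q11 replicate 3 and 1 without Q11 replicate 1, where Hsph1 and Hspd1 lost their calls.

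Called changes in core metabolism were few in most lists and, as for all genes, depended on single libraries. For the unadjusted counts in this paragraph no share over all genes was counted. For the glycolysis and hypoxia list, as for the nuclear respiratory chain, the called share was near the 5.95% of all genes. Of 13 mitochondrially encoded genes 0 were called by limma, 0 at an unadjusted p under 0.05 and 0 by limma-voom, and 2 of 43 nuclear respiratory chain genes were by limma, 1 in each direction, a share near the 5.95% of all genes (8 higher and 2 lower unadjusted, 5 and 1 by limma-voom). Neither was called when Q11 replicate 1 was left out. The higher call was also lost when control replicate 2 or 3, M2 replicate 1 or Q11 replicate 2 was left out, and 4 were higher when M2 replicate 3 was. In the tricarboxylic acid cycle list 4 of 26 were higher and 1, Acod1, was lower, and 23 of the 26 differences were positive. At an unadjusted p under 0.05, 9 were higher and 2 lower. The count of higher members was 0 without Q11 replicate 1 and 2 without control replicate 2. Cholesterol synthesis had 3 of 24 higher and 0 lower, led by Mvd at 0.30, with 22 positive differences. There, 10 were higher and 0 lower at an unadjusted p under 0.05, limma-voom called 7 higher, and 6 were higher with the shared reads separated. The count was 1 without Q11 replicate 1, control replicate 1 or control replicate 3, and 5 without M2 replicate 3. Of 33 glycolysis and hypoxia genes 2 were higher, 1 without any 1 control library, M2 replicate 1 or 3 or Q11 replicate 2, and 0 without Q11 replicate 1. Arl4c, a small GTPase induced by liver X receptors, rose from 80.4, 76.4 and 86.5 TPM to 157, 157 and 156 TPM, while Abca1, the cholesterol exporter induced by the same receptors, was lower by 0.42, a call lost without Q11 replicate 1. Among 37 NRF2 and antioxidant genes 0 were higher and 4 lower by limma, or 2 lower without Q11 replicate 1 (3 and 11 at an unadjusted p under 0.05, 2 and 10 by limma-voom), including Prdx5, which went from 211, 212 and 214 TPM to 154, 150 and 158 TPM.

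**Figure D4:**
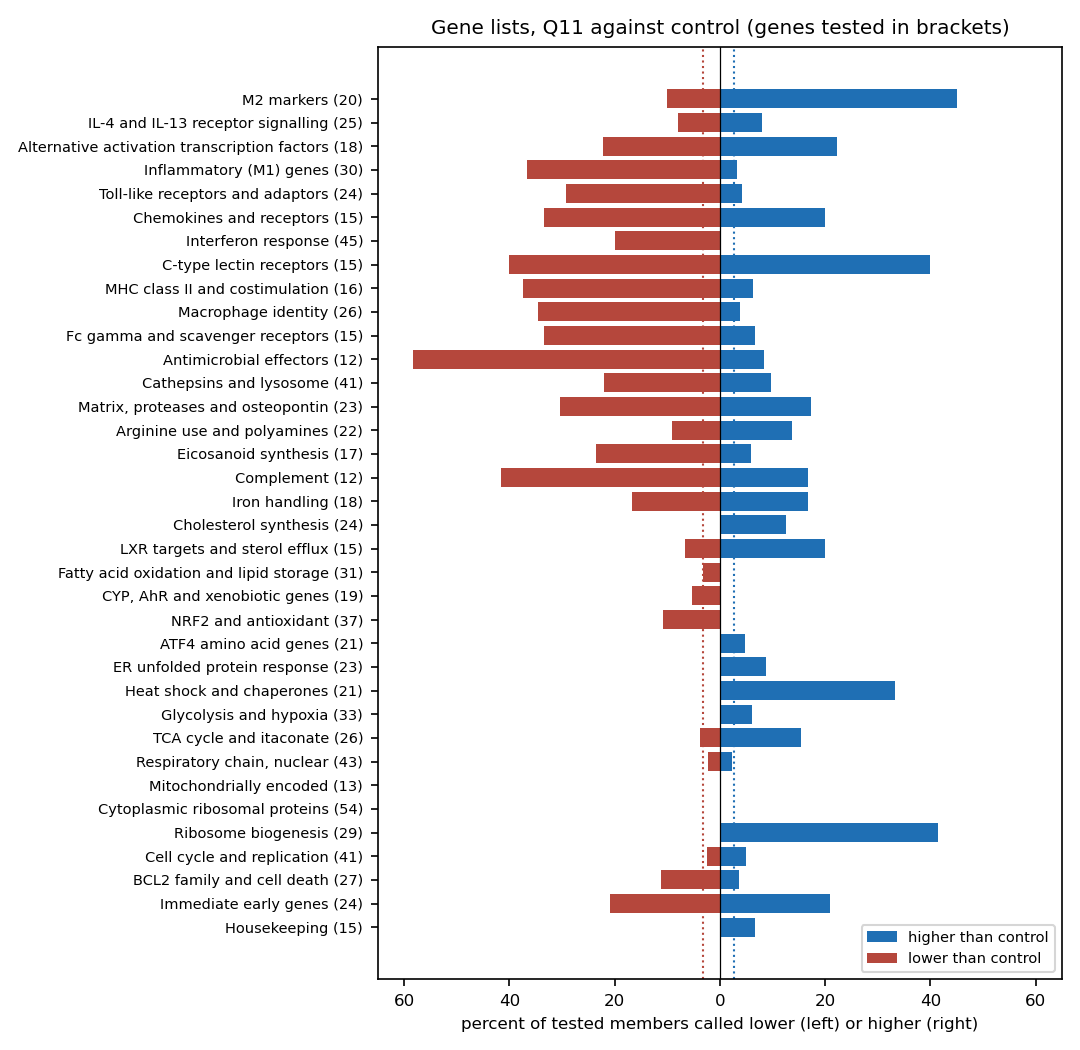
Percent of the tested members of each gene list called higher (bars to the right) or lower (bars to the left) in Q11 against control, with the number tested in brackets; dotted lines mark 2.69% and 3.25%, the shares over all genes tested. Antimicrobial effectors reach furthest to the left (7 of 12) and M2 markers furthest to the right (9 of 20).

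The named target of Q11 was barely detected as RNA. Cyp2e1 had 0, 1 and 0 recovered reads in control replicates 1 to 3 and 0, 1 and 1 in the Q11 replicates, of which those of replicates 2 and 3 may be the same read. At these depths a count of 0 allows up to 3 reads, so neither a level nor a difference could be measured. Of 19 tested genes for cytochrome P450 enzymes, the aryl hydrocarbon receptor and xenobiotic handling, 0 were higher and 1 was lower by limma. These counts were 0 and 2 by limma-voom. At an unadjusted p under 0.05 they were 0 and 3, but the share of all genes at that p was not counted. The share called by limma was near the 5.95% of all genes. The lower gene, Ugt1a7c, a glucuronosyltransferase, differed by -0.28, and 53.7% of its 50-base stretches are shared with other Ugt1a genes. Its call was lost without control replicate 2, control replicate 3 or Q11 replicate 1.

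The M2 libraries, which had the cytokines without Q11, place these values. In the same fit, no gene differed between Q11 and M2 by limma at an adjusted p under 0.05 (0% of 13658). The smallest adjusted p was 0.699, and 886 genes (6.49%) had an unadjusted p under 0.05. With the shared reads separated that unadjusted count was 1130 by limma and 1238 by limma-voom, with no call by either. This comparison shares the Q11 libraries with the one above, so the values are only set side by side. The interval of the Q11 minus M2 difference was -0.21 to 0.10 for Mgl2, -0.17 to 0.04 for Mrc1, -0.19 to 0.04 for Clec10a, -0.10 to 0.02 for Rnf19b and -0.03 to 0.16 for Tlr2. For genes of at least 5 TPM the 95% interval had a median half-width of 0.16. A p that misses the threshold does not show that the groups had equal levels.

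Of the 812 genes called against control, 105 (12.9%) had an unadjusted p under 0.05 for Q11 against M2, beside 6.49% of all genes. Both comparisons use the same Q11 libraries, so that share is not independent of the calls. For some named genes the unadjusted interval of Q11 minus M2 left 0 without passing the adjusted test. Those below are examples, and others, such as Tlr8, Ncf1 and Ctsk, are not described. Hcar2 stood at 14.3, 13.3 and 13.3 TPM in M2 and 17.3, 17.2 and 16.9 TPM in Q11, with an interval of 0.15 to 0.47. Ccl7 was at 525, 566 and 413 TPM in M2, with an interval of 0.02 to 0.56, and Cxcl2 at 14.7, 14.3 and 14.6 TPM, with 0.04 to 0.50. For all 3 the Q11 columns lay above the M2 columns. Alox5 had an interval of 0.07 to 0.61. On the other side, Cd40 was at 6.19, 6.27 and 6.88 TPM in M2, with an interval of -0.50 to -0.08, and C1s1, a complement protease gene, at 1.97, 2.25 and 2.87 TPM, with -0.89 to -0.08. C1s1 shares 35.1% of its 50-base stretches with other genes, chiefly C1s2. Ndufa2, a subunit of respiratory complex I, lay at 356, 360 and 373 TPM in M2 and 316, 304 and 332 TPM in Q11, with an interval of -0.27 to -0.12.

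**Figure D5:**
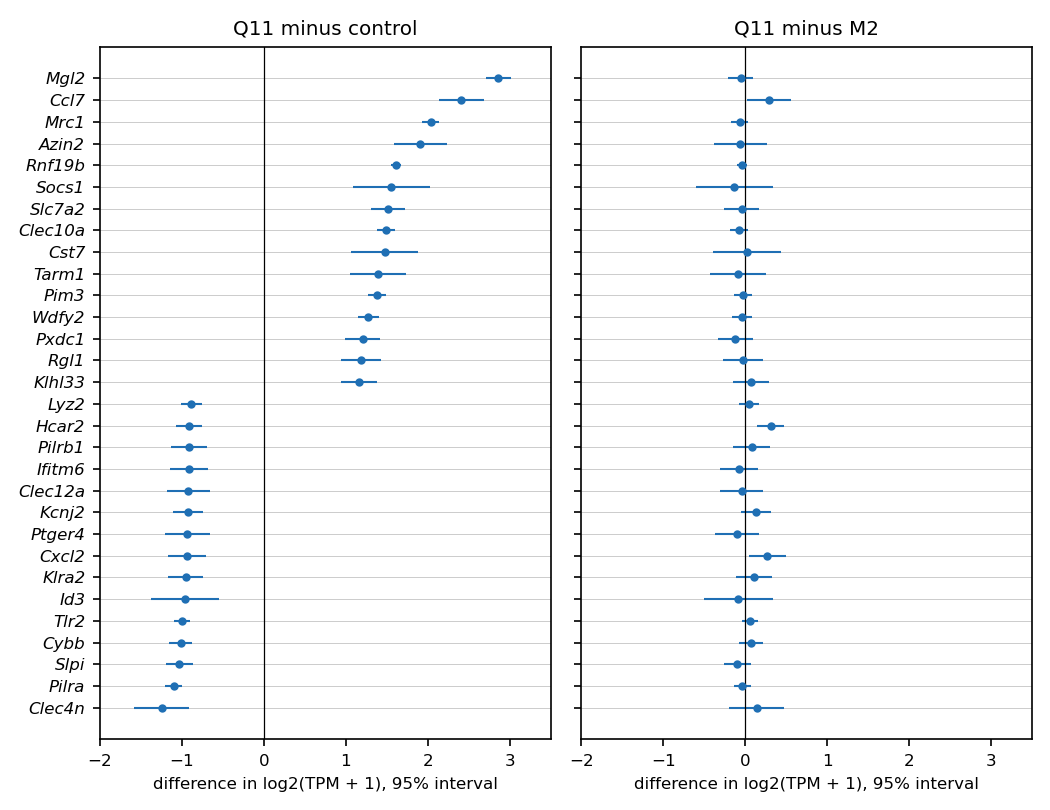
Difference in log2(TPM + 1) with its 95% limma interval for the 15 largest rises and falls, Q11 minus control on the left and Q11 minus M2 on the right, both on the same scale. On the left each interval is clear of 0, as the selection by adjusted p required, and on the right they lie around 0, with those of Ccl7, Cxcl2 and Hcar2 above it.

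STAT6 binds the palindrome TTCNNNNGAA, so the 250 bases before the RefSeq start sites (build GRCm38.p6) were searched for it. The motif reads the same on both strands, and a match is a run of letters, not evidence of binding. It occurred in 5.85% of all 32851 windows and in 4.73% of the 11568 windows of tested genes. Among called genes it occurred in 7.24% of 373 windows of higher genes and in 4.45% of 449 windows of lower genes. Of genes that rose by at least 0.5, 8 of 82 windows (9.76%, from 7 genes) held it. For those that fell by at least 0.5 it was 4 of 102 (3.92%, from 4 genes). Of 3 other motifs searched on both strands, the STAT motif with a shorter spacer, TTCNNNGAA, was in 5.80% of tested, 4.02% of higher and 7.80% of lower windows. The interferon motif, GAAA followed by any 2 bases and GAAA, was in 2.70, 2.95 and 4.23%, and the AP-1 motif TGACTCA in 3.25, 3.75 and 5.79%. For genes that rose by at least 0.5, these 3 motifs were in 2.44, 6.10 and 6.10% of the 82 windows, in that order. For genes that fell by at least 0.5 they were in 9.80, 5.88 and 5.88% of the 102 windows. Motifs can overlap in a window. The 15 largest rises had 13 windows for 11 genes, Mgl2, Mrc1 and Socs1 among them, and 0 of these held the STAT6 motif. The 15 largest falls had 13 windows for 13 genes, and 0 of those held it. Sets of 13 windows are too small to read these counts as a difference from other genes. The stretches below, chosen after the values were seen, show the motif in capitals with up to 25 bases on either side, 5′ to 3′ on the strand of the gene. None overlaps an exon of GENCODE M21. The first 5 belong to genes that were higher in Q11 and the last 4 to genes that were lower.
Tlr8 (chrX:167264372-167264431, minus strand): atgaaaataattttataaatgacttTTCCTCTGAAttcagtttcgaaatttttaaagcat
Tfec (chr6:16898607-16898666, minus strand): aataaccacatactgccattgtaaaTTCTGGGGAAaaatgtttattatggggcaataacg
Clec7a (chr6:129472876-129472935, minus strand): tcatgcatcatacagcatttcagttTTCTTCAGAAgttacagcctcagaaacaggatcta
Ralgds (chr2:28533248-28533307, plus strand): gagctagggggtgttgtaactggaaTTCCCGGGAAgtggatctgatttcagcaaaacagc
Ppp2r3a (chr9:101251905-101251964, minus strand): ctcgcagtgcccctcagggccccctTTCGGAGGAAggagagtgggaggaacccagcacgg
Clec5a (chr6:40585869-40585928, minus strand): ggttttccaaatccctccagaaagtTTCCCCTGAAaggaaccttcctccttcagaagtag
Nlrp3 (chr11:59542539-59542598, plus strand): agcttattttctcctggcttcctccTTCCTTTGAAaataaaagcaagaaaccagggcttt
Dst (chr1:34160145-34160204, plus strand): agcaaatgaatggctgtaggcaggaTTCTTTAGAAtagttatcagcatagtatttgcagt
Slc28a2 (chr2:122426209-122426268, plus strand): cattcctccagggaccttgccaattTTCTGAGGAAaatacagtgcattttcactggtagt

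Tlr8 was higher by 0.93, Tfec by 0.98 and Clec7a by 0.72. Ralgds, another exchange factor for Ral, rose from 22.8, 20.4 and 21.3 TPM to 34.5, 33.1 and 31.4 TPM, and Ppp2r3a, a regulatory subunit of protein phosphatase 2A, from 2.67, 2.44 and 2.40 TPM to 5.34, 4.60 and 4.56 TPM. Clec5a fell from 149, 154 and 143 TPM to 85.2, 82.1 and 85.6 TPM. Dst, a cytoskeletal linker, fell from 45.7, 43.8 and 45.7 TPM to 27.8, 28.3 and 28.1 TPM, and Slc28a2, a nucleoside transporter, from 12.1, 9.49 and 9.10 TPM to 5.48, 6.58 and 5.47 TPM. The calls of Tfec, Ppp2r3a and Slc28a2 were lost without Q11 replicate 1, that of Ppp2r3a also with no filter on low values and that of Slc28a2 also under the replicate block.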

How the data were processed

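Poly-A RNA was sequenced from 9 J774A.1 libraries, 3 per group, after preparation with NEBNext Ultra reagents (per the labels' protocols). The authors deposited 1 table of TPM values, made with HISAT2 2.0.5 and StringTie 1.3.3b on build mm10 (GRCm38), per the submitters' processing notes. The annotation release, counting settings and strand handling are not given in the sources used here. GENCODE M21 supplied coordinates and lengths for 25594 of the table's 26157 gene IDs (97.8%).

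The log2(TPM + 1) values of genes with at least 1 TPM in 3 or more of the 6 control and Q11 columns were fitted with limma 3.58.1 (trend, R 4.3.3), with 1 mean per group, all 3 groups sharing the spread and the averaged Q11 replicates 2 and 3 counted as 1 library. TPM keeps no total, so reads were recovered from TPM and gene length, which made 98.8 to 99.1% of values of up to 20 reads whole within 0.1. The fit was also run on simulated data with independent libraries, which cannot test the averaging of the shared pair. Genes were named by a rule: the 15 largest rises and falls among called genes with no overlap and at least 5 TPM in the higher group, up to 4 called members per list, and 25 fixed genes. The members and lists were chosen with earlier results of these data known. Lists are described by counts and medians, with no set test. Alternatives covered the handling of the shared reads, the pseudocount, the filter, the scaling, the variance model, limma-voom, the replicate block and each library left out. Sharing was measured on 50-base stretches of GENCODE transcripts.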

Additional observations from a re-analysis of the deposited data

How the results depend on the processing

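With the Q11 columns taken as deposited, as 3 libraries, 756 genes were higher and 796 lower than control. Without the mean-variance trend the counts were 192 and 281, and with limma-voom on recovered reads 743 and 832. Leaving out 1 library at a time gave 95 to 379 higher genes and 132 to 475 lower genes, with the lowest counts without Q11 replicate 1, which leaves 1 library in that group and assumes that it varies like the others. Leaving out any 1 control library also lowered both counts by over 1.5 times. With the shared reads separated and Q11 replicate 1 left out, a setting added after seeing the data, 295 genes were higher and 367 lower. For Q11 against M2, 6 genes passed with no filter on low values, 4 without the trend (SNORA73, 1700001D01Rik, Gm25558 and Gm24095), and 0 to 1 when a library was left out (5S_rRNA, without control replicate 3). The cause of these shifts was not tested. The other 45 of the 62 alternative counts stayed within 1.5 times. Deviations of same-numbered control and Q11 libraries had correlations of -0.002, -0.010 and -0.024, and those of different numbers had -0.041 to 0.050. With 3 libraries per group and shared reads in Q11 replicates 2 and 3, these values cannot show whether the numbers mark a pairing. The replicate block gave 360 higher and 397 lower genes with the shared reads separated, and 534 and 599 with the columns as deposited. Of 119 called named genes, 59 kept their call in every setting that tested them and 0 changed direction, and the setting without Q11 replicate 1 lost 60. The 2 independent Q11 libraries limit the precision of all Q11 values.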

Other observations

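Genes of the immediate early response, which turn on within minutes of many stimuli, moved in both directions. Of 24 tested, 5 were higher and 5 lower than control, with a median of -0.11. These counts were 1 and 2 without Q11 replicate 1, 3 were higher without control replicate 2, and 3 were lower without control replicate 1 or 2. Ier3, a stress-induced survival gene, stood at 120.1, 114 and 137 TPM in control and at 224, 213 and 214 TPM in Q11, a difference of 0.82 [0.65, 0.99]. Dusp6, a phosphatase that switches off the kinase ERK, fell from 108, 109 and 106 TPM to 65.6, 66.0 and 67.4 TPM, with a difference of -0.69 [-0.79, -0.60] (limma adjusted p = 0.000109). The M2 columns of Dusp6, at 62.9, 62.2 and 58.0 TPM, all lay under those of Q11, with an interval of 0.02 to 0.21 for Q11 minus M2 that did not pass the adjusted test. Dusp1, a related phosphatase, was lower by 0.55, a call lost without Q11 replicate 1.

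Iron handling had 3 of 18 genes higher and 3 lower. Without any 1 control library, M2 replicate 1 or Q11 replicate 1 only 1 was higher, and 0 were lower without control replicate 2 or Q11 replicate 1 and 1 without control replicate 3. Slc40a1, ferroportin, the iron exporter, went from 6.99, 7.34 and 6.44 TPM to 3.91, 4.3 and 4.16 TPM while Tfrc, the main route of iron uptake, rose. The call of Slc40a1 was lost in 4 settings, which included those without control replicate 1, control replicate 2 or Q11 replicate 1. Among 27 genes of the BCL2 family and cell death, 1 was higher and 3 lower. Pmaip1, also called NOXA, which promotes apoptosis, had the largest fall of the list, from 83.2, 82.0 and 83.6 TPM to 53.1, 54.9 and 60.5 TPM, a difference of -0.58. Bcl2l1 and Mcl1, which protect cells from apoptosis, differed by -0.26 and -0.24. All 3 calls were lost without Q11 replicate 1, and that of Pmaip1 also without any 1 control library or M2 replicate 1. Bax, which promotes apoptosis, was the higher member at 0.22, and its call was lost without any 1 control library, M2 replicate 3 or Q11 replicate 1. Of 41 cell cycle genes 2 were higher and 1 lower, with a median of 0.02, and 0 were called without control replicate 1 or Q11 replicate 1. Without control replicate 2 or 3, 1 was higher and 0 were lower. With all libraries the called share of the cell cycle list was near the 5.95% of all genes. In the unfolded protein response 2 of 23 were higher (1 without any 1 control library or M2 replicate 1, 0 without Q11 replicate 1), led by Pdia4, a disulfide isomerase of the endoplasmic reticulum, at 0.42, which was lost without Q11 replicate 1.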
